A study of Homo sapiens with 6 samples.

Results

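Nucleolar ribosome biogenesis factors are the proteins that build the 2 ribosomal subunits in the nucleolus. A list of 46 of their genes was set by gene name, with earlier results of these data known. The rule itself uses no measured value, and all 46 were found among the 16798 coding genes of the deposited table. Total RNA was measured by bulk RNA-seq in COV434, a wild-type human cell line labelled as granulosa cells, the somatic cells that surround the oocyte. The control group held 3 samples, to which the labels give no treatment. The 4HC group held 3 samples treated with 4HC, the active moiety of cyclophosphamide (CTX), at 15 µM for 24 h according to the labels. The cells of both groups were grown in DMEM with fetal bovine serum and antibiotics, and this line is the only one in the samples analysed.

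Ribosome production begins with the transcription of a long rRNA precursor by RNA polymerase I. Small nucleolar RNAs (snoRNAs) bound to core proteins, as box C/D and box H/ACA snoRNPs, guide its 2′-O-methylation and pseudouridylation. The small-subunit (SSU) processome, which includes the t-UTP proteins, folds and cleaves the part that becomes the 40S subunit, and another set of factors, among them the PeBoW complex, matures the 60S subunit. Nucleolin, nucleophosmin and a few other abundant nucleolar proteins act at several of these steps. The genes of this machinery are known as targets of MYC, whose binding sequence is the E-box.

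Exposure to 4HC was accompanied by a small and broad decrease of these transcripts. All 46 genes passed the filter on low counts. By edgeR's quasi-likelihood test with a threshold of 0.05 on the adjusted p-value, 37 fell, 0 rose and 9 did not pass. Over the 12368 genes tested, 17.1% fell and 19.2% rose by the same rule. The median log2 fold change of the 46 genes was -0.22, a median change of -14.1%, beside a median of 0.00 over all genes tested. Values ran from -0.41 for PPAN to 0.09 for NOP10, and 45 of the 46 were negative. By edgeR, none of the 46 genes (0) had a fold change of at least 2 with an unadjusted p-value under 0.05. That is the study's limit for a differentially expressed gene, and 1.15% of all genes tested met it by edgeR. The study applied its limit to a DESeq2 fit and reported more such genes. Its own calls were not compared with the 46 genes.

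The samples are named here by group and replicate number, and levels are given as TMM-normalized CPM (counts scaled to library size with edgeR's factors) or, between genes, as the deposited TPM, which is corrected for length. Sample totals of expected counts lay between 16133786 and 16702316, and the lowest count of any of the 46 genes in any sample was 261, in NOC4L. Since no source used here says whether the 3 samples of a group were separate cultures, p-values measure the spread between these samples only. TPM and CPM are shares of the RNA in a bulk sample, so that fewer cells with a transcript and less of it per cell cannot be told apart.

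As a check of the treatment and of the label, markers of the line were read. CDKN1A, the p53-induced CDK inhibitor, rose by 1.80 and MDM2, the p53 ubiquitin ligase, by 0.98 on the log2 scale (edgeR adjusted p = 2.56e-42 and 6.87e-32). Of the granulosa markers, WT1 (mean control TPM 133), KITLG (38.6), HSD17B1 (22.5) and AMH (5.34) were present, whereas FSHR, CYP19A1, FOXL2, INHBA, INHBB, STAR, NR5A1, GATA4, LHCGR and FST were each under 0.5 TPM. WT1 fell by 0.35 and KITLG by 0.24 on the log2 scale in 4HC (edgeR adjusted p = 8.81e-12 and 8.12e-06), and their part in the results below was not tested. Among markers of other ovarian cells, the stromal LUM and DCN, the oocyte ZP3 and the epithelial KRT8 lay above 5 TPM (43.2, 11.5, 18.7 and 6.35). None of these passed the test between the groups. The endothelial PECAM1 and CDH5, the epithelial EPCAM, the stromal COL1A1 and the germ cell DDX4 were under 0.5 TPM. The granulosa markers AMHR2 and CYP11A1 and the leukocyte marker CD3E were not listed in the deposited table.

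**Figure D1:**
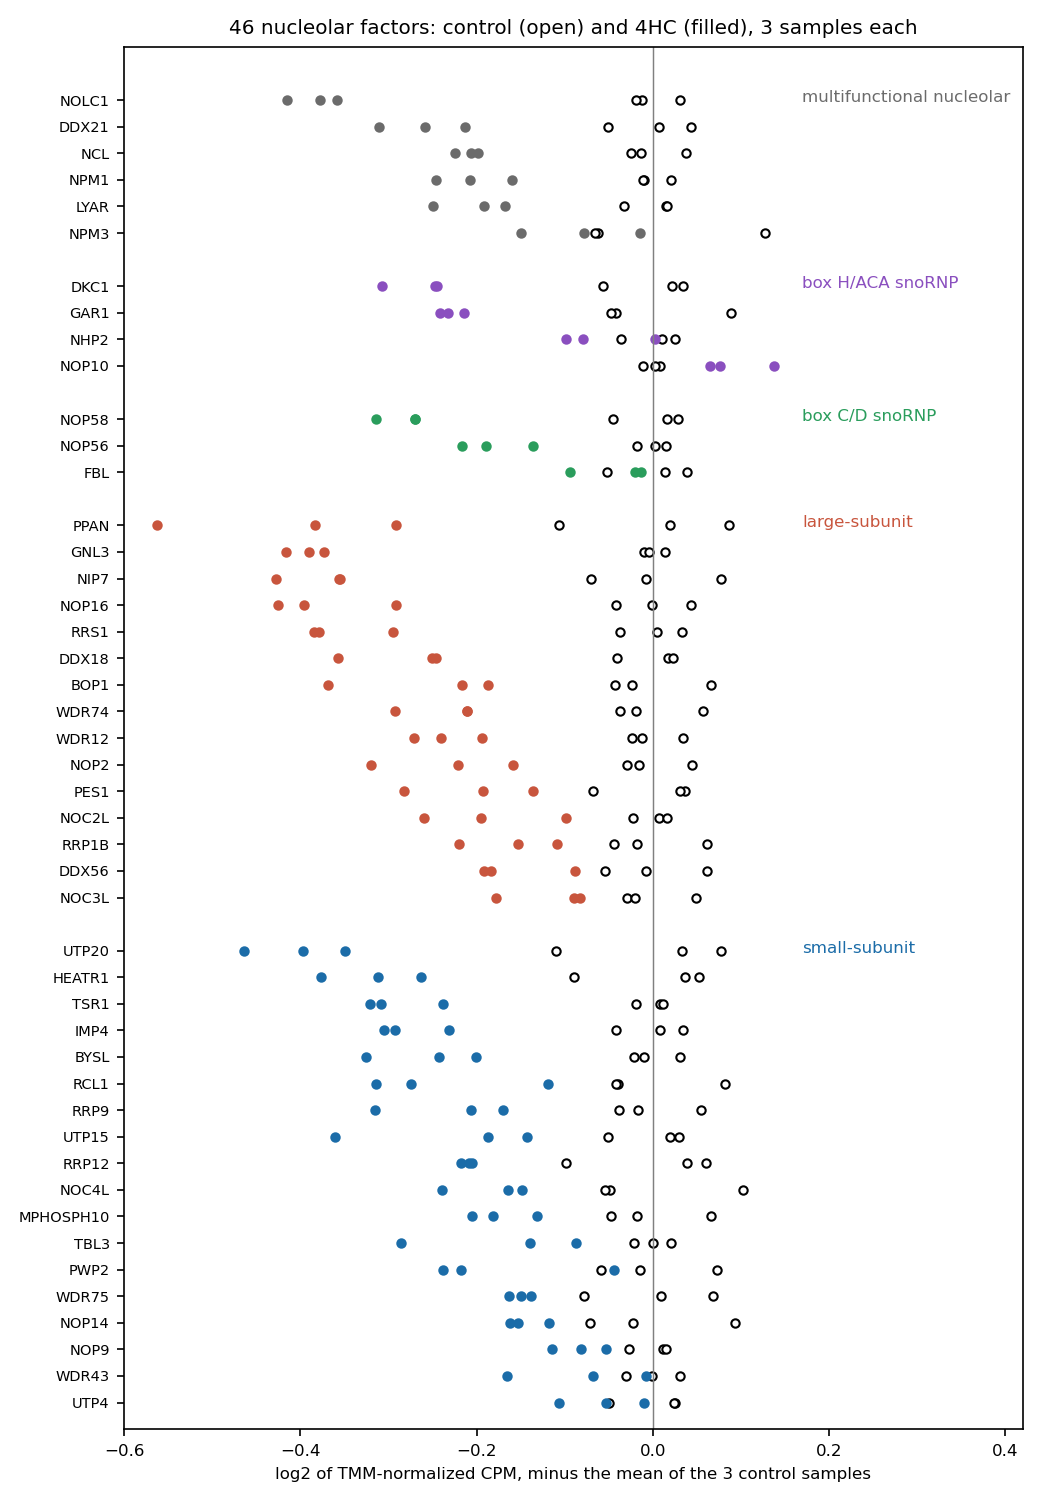
Each of the 46 genes is a row, and the x axis gives the log2 of TMM-normalized CPM of each of the 3 control samples (open) and the 3 4HC samples (filled) minus the mean of the 3 control samples. The 4HC samples of 39 genes sit entirely to the left of the control samples, and those of NOP10 sit to the right.

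The plot of the 46 genes by sample shows how evenly the 3 samples of a group behaved. In 39 of the 46 genes every 4HC sample was below every control sample, which held for 21.9% of all genes tested. In NOP10 every 4HC sample was above, which held for 2900 of the 12368 genes tested. Relative to the control mean, the median of the 46 genes was -0.22, -0.21 and -0.21 on the log2 scale in the 3 4HC samples, and 0.00, -0.01 and 0.01 in the 3 control samples. Added together, the 46 genes took 0.801%, 0.793% and 0.806% of the counts in control and 0.690%, 0.704% and 0.697% in 4HC. The groups did not overlap, and their means were 0.800% ± 0.00683 for control and 0.697% ± 0.00712 for 4HC (SD, n = 3).

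**Figure D2:**
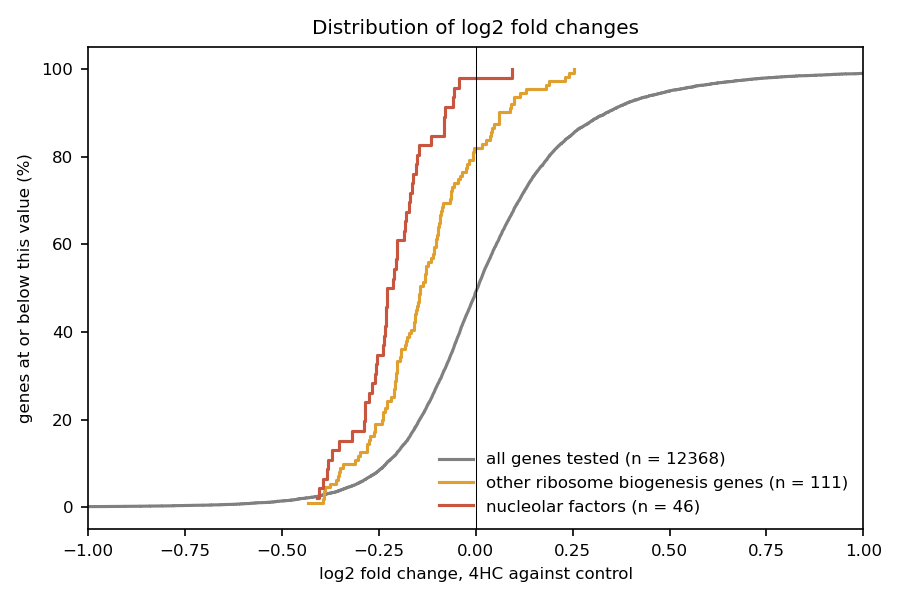
Cumulative share of genes (y axis, %) at or below each log2 fold change of 4HC against control (x axis) for the 46 nucleolar factors, 111 other ribosome biogenesis genes and all 12368 genes tested. The curve of the nucleolar factors lies to the left of that of all genes tested, with medians of -0.22 and 0.00.

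In the cumulative plot of fold changes, 39 of the 46 genes lay below -0.11, the 25th percentile of all genes tested, and 45 lay below the median of all genes. A pair of further sets, chosen after values had been seen, are given side by side and without a test between the sets. Of 79 genes of cytosolic ribosomal proteins, the products that the nucleolar factors assemble, 0 fell and 27 rose (34.2%), with a median of 0.06. Of 20 genes of the RNA polymerase I machinery, 7 fell (35%) and 2 rose (10%), with a median of -0.08. Among all genes tested, 17.1% fell and 19.2% rose.

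Promoter sequences were read to see whether the genes share an E-box, CACGTG, the sequence bound by MYC. RefSeq promoters of 300 bases, from 250 before to 50 after the start, were matched for 38 of the 46 genes, 46 promoters in all since 8 of the genes had 2. NOP58, BOP1, RRP1B, MPHOSPH10, DDX18, NOLC1, RRP12 and RRS1 had no entry. The promoters shown belong to 3 genes that fell and hold an E-box (UTP20, RRP9, PES1), 1 that fell and holds none (NIP7) and 2 that did not pass the test and hold 1 or more (FBL, NOP10). They are written 5′ to 3′ on the strand of the gene, from GRCh38.p14, with the E-box in capitals.
UTP20, chr12:101279855-101280154, plus strand: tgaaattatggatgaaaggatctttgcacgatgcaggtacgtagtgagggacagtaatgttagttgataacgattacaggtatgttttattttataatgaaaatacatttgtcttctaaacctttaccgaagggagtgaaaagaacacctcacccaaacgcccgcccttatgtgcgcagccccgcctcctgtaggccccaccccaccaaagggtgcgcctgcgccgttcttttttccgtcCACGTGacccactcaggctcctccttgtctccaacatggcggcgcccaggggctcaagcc
RRP9, chr3:51941855-51942154, minus strand: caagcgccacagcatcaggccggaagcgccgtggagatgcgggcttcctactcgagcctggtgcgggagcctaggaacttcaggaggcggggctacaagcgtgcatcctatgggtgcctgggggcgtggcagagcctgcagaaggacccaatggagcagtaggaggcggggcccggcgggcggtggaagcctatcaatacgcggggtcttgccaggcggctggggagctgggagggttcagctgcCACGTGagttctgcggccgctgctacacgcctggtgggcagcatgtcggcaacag
PES1, chr22:30591861-30592160, minus strand: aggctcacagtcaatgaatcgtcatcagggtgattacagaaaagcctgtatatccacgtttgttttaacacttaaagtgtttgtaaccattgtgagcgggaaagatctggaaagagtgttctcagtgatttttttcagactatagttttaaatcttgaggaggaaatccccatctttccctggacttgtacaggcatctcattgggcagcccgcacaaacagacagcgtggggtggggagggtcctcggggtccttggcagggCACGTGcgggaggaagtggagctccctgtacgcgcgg
NIP7, chr16:69339522-69339821, plus strand: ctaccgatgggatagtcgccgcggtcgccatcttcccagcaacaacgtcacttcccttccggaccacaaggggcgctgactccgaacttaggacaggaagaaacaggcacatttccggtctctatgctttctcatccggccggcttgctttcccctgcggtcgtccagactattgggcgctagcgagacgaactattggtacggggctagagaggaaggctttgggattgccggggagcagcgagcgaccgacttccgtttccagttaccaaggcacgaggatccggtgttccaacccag
FBL, chr19:39846330-39846629, minus strand: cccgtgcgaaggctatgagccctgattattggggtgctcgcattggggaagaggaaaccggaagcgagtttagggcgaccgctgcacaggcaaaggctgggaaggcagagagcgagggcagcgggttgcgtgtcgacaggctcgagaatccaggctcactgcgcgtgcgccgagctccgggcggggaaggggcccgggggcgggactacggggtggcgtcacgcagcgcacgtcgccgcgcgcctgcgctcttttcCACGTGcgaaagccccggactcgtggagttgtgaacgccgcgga
NOP10, chr15:34343087-34343386, minus strand: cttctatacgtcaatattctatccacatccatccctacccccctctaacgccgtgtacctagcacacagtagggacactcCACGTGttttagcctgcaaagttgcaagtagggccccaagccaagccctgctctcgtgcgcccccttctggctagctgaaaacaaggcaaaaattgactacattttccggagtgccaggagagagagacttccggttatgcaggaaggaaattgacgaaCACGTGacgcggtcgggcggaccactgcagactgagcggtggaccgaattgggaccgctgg

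In UTP20 the E-box begins 10 bases before the start and in RRP9 5 bases before it, while in PES1 it begins 13 bases and in FBL 6 bases after it. NOP10 holds one 170 and another 11 bases before its start. The starts used for UTP20 and PES1 lie within the span that the deposited table gives for these genes, so they are not the outermost start of either gene.

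An E-box in any promoter was found for 18 of the 38 genes (47.4%), compared with 12.7% of the 10180 tested genes with a promoter. Counted by promoter, 18 of the 46 (39.1%) held one, beside 9.3% of the 14978 promoters of tested genes and 7.26% of all 35116 promoters in the table. The 6 letters read the same on both strands. Of 20 E-boxes in the promoters of the nucleolar factors, 18 began within 70 bases of the start, a window chosen after the positions had been seen, and 47.2% of the 1581 E-boxes of all tested genes did so. The calls were spread over genes with and without an E-box. Among genes with one 13 of 18 were lower, and among those without one 16 of 20 were lower, with median log2 fold changes of -0.22 and -0.21.

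**Figure D3:**
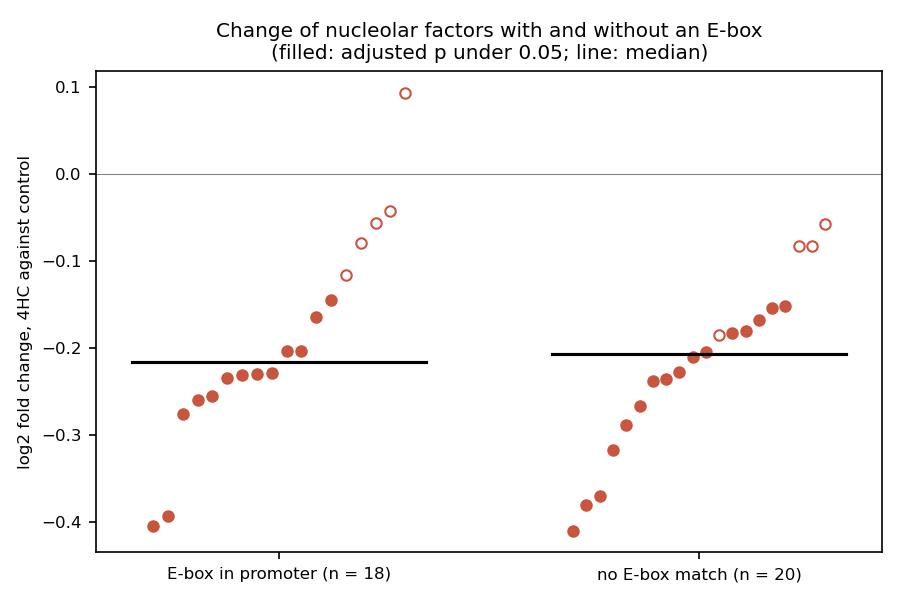
Log2 fold change of 4HC against control (y axis) for the 18 nucleolar factors with an E-box in a promoter and the 20 without one. Filled points passed the test (threshold of 0.05 on the adjusted p-value), and the lines mark the medians of -0.22 and -0.21.

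Other promoter words were counted on both strands in the same windows, and the plot by E-box shows how far the 2 groups of genes overlap. The shares here are of genes with the word in any promoter. The ETS word CCGGAAG was found for 39.5% of the nucleolar factors and for 22.9% of the tested genes. CTCGCGAG was found for 5.26% against 2.55%, the NRF1-type word GCATGCGC in 2.63% against 6.68% and the CCAAT box in 44.7% against 43.6%. None of the words as written here is contained in another, but overlap of their matches within a promoter was not checked. A match is a description of the letters in this window and not a binding site.

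Nearly all factors of the large subunit fell. Of 15 genes 14 were lower, 0 were higher, and the median log2 fold change was -0.24. PPAN, a pre-60S factor of the Brix family (19p13.2, chr19:10106223-10112012 in the GRCh38 coordinates of the deposited table), had 46.5, 50.8 and 53.2 CPM in control and 40.9, 38.4 and 33.9 CPM in 4HC. All control samples lay above all 4HC samples, and the gene fell by 24.8%, a log2 fold change of -0.41 ± 0.0593 (SE, edgeR adjusted p = 1.37e-07). PPAN shares 56% of its exonic bases with the readthrough gene PPAN-P2RY11 on the same strand, so the division of reads between them is an estimate. The sum of both genes was 57.6, 57.6 and 64.1 CPM in control and 45.9, 49.3 and 46.7 CPM in 4HC, again without overlap.

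GNL3, the GTPase nucleostemin (3p21.1, chr3:52685920-52694497), had 167, 165 and 165 CPM in control and 124, 126 and 128 CPM in 4HC. The samples of each group lay close together and the groups far apart, with a log2 fold change of -0.39 ± 0.0374 (SE, edgeR adjusted p = 1.53e-12). NIP7, a pre-60S factor (16q22.1, chr16:69339772-69343106) whose promoter without an E-box is printed above, had 86.5, 90.3 and 95.9 CPM in control and 67.5, 71.0 and 70.9 CPM in 4HC. NIP7 fell by 23.2% with no overlap of the groups, a log2 fold change of -0.38 ± 0.0457 (SE, edgeR adjusted p = 1.45e-09).

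NOP16, another pre-60S factor, was the most abundant of the large-subunit genes, with 199 ± 5.53 TPM in control and 152 ± 6.07 TPM in 4HC (SD, n = 3). Its levels were 74.5, 72.3 and 70.2 CPM in control and 53.8, 59.1 and 55.0 CPM in 4HC. Here too the groups did not overlap, with a log2 fold change of -0.37 ± 0.0485 (SE, edgeR adjusted p = 1.33e-08). RRS1, which brings the 5S RNP into the large subunit, followed with a log2 fold change of -0.35.

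PES1, BOP1 and WDR12 form PeBoW, the complex that drives maturation of the 60S precursor. All 3 fell, with no overlap between the groups and with log2 fold changes of -0.20, -0.26 and -0.24. The similarity of these values is a description, since no test between genes was made. Of the RNA helicases of this pathway, DDX18 fell by 0.28 and DDX56 by 0.15 on the log2 scale. NOP2, which methylates the 28S rRNA, had a log2 fold change of -0.23, but shares 54.4% of its exonic bases with another gene on the same strand. WDR74, NOC2L and RRP1B, all pre-60S factors, fell by 0.24, 0.18 and 0.16 on the log2 scale. NOC3L, the partner of NOC2L in yeast, did not pass, with a log2 fold change of -0.12 (edgeR adjusted p = 0.0605), although every 4HC sample was below every control sample. It did pass with DESeq2's size factors and with upper quartile factors (adjusted p = 0.0491 and 0.0429).

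Of 18 factors of the small subunit, 14 were lower, 0 were higher and 4 did not pass, with a median log2 fold change of -0.20. UTP20, a very large scaffold protein of the SSU processome (12q23.2, chr12:101240268-101386618), had 103, 90.5 and 99.9 CPM in control and 70.8, 76.7 and 74.2 CPM in 4HC. The lowest control sample stood well above the highest 4HC sample, and the log2 fold change was -0.41 ± 0.0466 (SE, edgeR adjusted p = 4.46e-10).

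HEATR1, a t-UTP protein that links rRNA transcription with processing (1q43, chr1:236540094-236604516), had 176, 160 and 174 CPM in control and 131, 137 and 142 CPM in 4HC. It fell by 19.8% without overlap, a log2 fold change of -0.32 ± 0.04 (SE, edgeR adjusted p = 4.93e-09). TSR1, a GTPase-like factor of the 40S precursor (17p13.3, chr17:2322396-2336538), had 179, 182 and 182 CPM in control and 146, 145 and 153 CPM in 4HC. Its log2 fold change was -0.29 ± 0.037 (SE, edgeR adjusted p = 7.59e-09), and control replicates differed by only a few CPM. HEATR1 shares 23.2% of its exonic bases with LGALS8 and TSR1 20.7% with SRR, both on the opposite strand, and no source used here gives the strand setting of the counting.

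BYSL, a factor of the 40S precursor, was the most abundant small-subunit gene by TPM, with 77.7 ± 2.03 in control and 64.7 ± 3.15 in 4HC (SD, n = 3). In CPM it measured 70.6, 69.98 and 72.6 in control and 60.1, 56.7 and 61.8 in 4HC, again without overlap. The log2 fold change was -0.26 ± 0.0476 (SE, edgeR adjusted p = 2.1e-05).

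The t-UTP subcomplex, which is the first to join the rRNA precursor, held genes with and without a call. HEATR1, UTP15 and WDR75 fell, with log2 fold changes of -0.32, -0.23 and -0.15, while WDR43 (-0.08, edgeR adjusted p = 0.115) and UTP4 (-0.06, edgeR adjusted p = 0.336) did not pass. A difference in calls is not a difference between genes, and so the ratio of HEATR1 to UTP4 was taken in each sample. It was 0.471, 0.450 and 0.465 in control and 0.359, 0.401 and 0.399 in 4HC on the TPM scale, lower in every 4HC sample (exact permutation test, two-sided, p = 0.1, the smallest that 3 against 3 samples allow). These 2 genes were paired after their values had been seen. WDR75 lost its call without control replicate 3 (edgeR adjusted p = 0.0747), and WDR43 gained one without 4HC replicate 3 (edgeR adjusted p = 0.0297).

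Of the UTP-B subcomplex, TBL3 fell by 0.17 and PWP2 by 0.16 on the log2 scale. Both are weak calls. TBL3 did not pass without 4HC replicate 3 (edgeR adjusted p = 0.107) or by limma on log2(TPM + 1) (adjusted p = 0.0724). PWP2, the only gene called lower whose groups overlapped, did not pass without control replicate 2, 4HC replicate 2 or 4HC replicate 3 (edgeR adjusted p = 0.0952, 0.0835 and 0.0815). TBL3 also shares 29.9% of its exonic bases with NOXO1 on the opposite strand. Of the Mpp10 subcomplex, IMP4 fell by 0.28 and MPHOSPH10 by 0.17 on the log2 scale, the latter not without control replicate 1 (edgeR adjusted p = 0.0706).

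RRP9, a protein of the U3 snoRNP whose promoter with its E-box is printed above, fell by 0.23 on the log2 scale, and RRP12, which serves the export of precursors, by 0.21. RCL1, a factor of the SSU processome, fell by 0.23 on the log2 scale, but did not pass without control replicate 3 or without 4HC replicate 2 (edgeR adjusted p = 0.0623 and 0.0514). NOP14 fell by 0.15 on the log2 scale and lost its call without control replicate 2 (edgeR adjusted p = 0.111). NOC4L, its partner, had a log2 fold change of -0.18 and did not pass (edgeR adjusted p = 0.0544). It did pass in edgeR with DESeq2's size factors and with upper quartile factors (adjusted p = 0.0474 and 0.0428). By limma on log2(TPM + 1) and log2(TPM + 0.1) it passed too (adjusted p = 0.029 and 0.0274), but in no other alternative. NOP9, an RNA-binding factor of the 40S precursor, did not pass either (-0.08, edgeR adjusted p = 0.152).

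**Figure D4:**
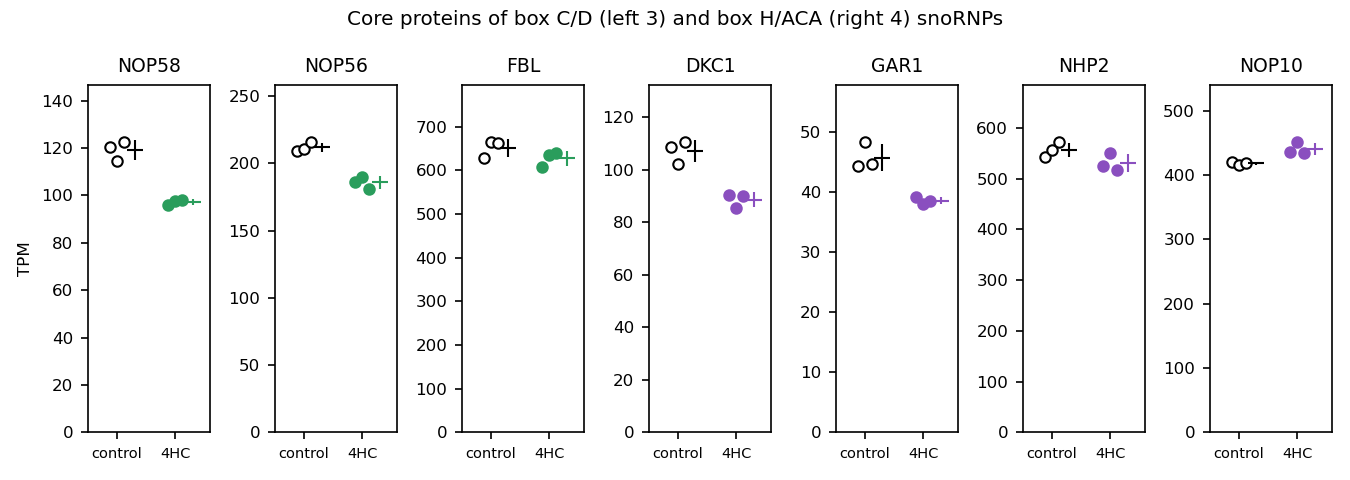
TPM (y axis, starting at 0 in each panel) of core proteins of snoRNPs, with a point for each of the 3 control and 3 4HC samples. Those of box C/D are NOP58, NOP56 and FBL, without SNU13, and those of box H/ACA are DKC1, GAR1, NHP2 and NOP10. NOP58, NOP56, DKC1 and GAR1 were lower in all 4HC samples, FBL and NHP2 overlapped, and NOP10 was higher in all 4HC samples.

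The snoRNP core proteins held both called and uncalled genes, as the plot of their TPM shows. Of the core proteins of box C/D particles, the list of nucleolar factors holds NOP58, NOP56 and the methyltransferase fibrillarin (FBL). Of these 3 genes 2 were lower. SNU13, another core protein of these particles, was counted among the other biogenesis genes described below. SNU13 was lower too, with a log2 fold change of -0.10 (edgeR adjusted p = 0.0409) and no overlap between the groups. NOP58 (2q33.1, chr2:202265736-202303661) had 131, 126 and 132 CPM in control and 104, 108 and 108 CPM in 4HC, a log2 fold change of -0.29 ± 0.0398 (SE, edgeR adjusted p = 6.39e-08). NOP56 (20p13, chr20:2652632-2658393) had 217, 220 and 222 CPM in control and 193, 200 and 189 CPM in 4HC, a log2 fold change of -0.18 ± 0.0353 (SE, edgeR adjusted p = 4.43e-05). Neither gene had overlapping groups.

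FBL (19q13.2), whose promoter is printed above, was the most abundant of the 3 with 651 ± 20.4 TPM in control and 627 ± 17 TPM in 4HC (SD, n = 3). The deposited values place FBL on no main chromosome and list a second copy of one of its transcripts, a limit described with the transcripts below. Its 269, 286 and 281 CPM in control overlapped with 261, 275 and 276 CPM in 4HC. The log2 fold change of -0.04 did not pass (edgeR adjusted p = 0.352), with a 95% confidence interval from -0.11 to 0.03. On the TPM scale, the ratio of NOP58 to FBL was 0.192, 0.173 and 0.185 in control and 0.158, 0.154 and 0.154 in 4HC, and that of NOP56 to FBL 0.334, 0.317 and 0.326 in control and 0.306, 0.2997 and 0.284 in 4HC. Both ratios were lower in every 4HC sample (exact permutation test, two-sided, p = 0.1 each, the smallest possible).

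Box H/ACA particles carry the pseudouridine synthase dyskerin (DKC1) with GAR1, NHP2 and NOP10, and 2 of these 4 genes were lower. DKC1 (Xq28, chrX:154760292-154777689) had 153, 145 and 154 CPM in control and 127, 122 and 127 CPM in 4HC, without overlap, and fell by 16.9%. Its log2 fold change was -0.27 ± 0.0389 (SE, edgeR adjusted p = 1.75e-07). GAR1 (4q25, chr4:109812818-109824737) had 20.4, 22.3 and 20.3 CPM in control and 18.1, 17.8 and 17.9 CPM in 4HC, a log2 fold change of -0.23 ± 0.0731 (SE, edgeR adjusted p = 0.0105). This call was lost with DESeq2 (adjusted p = 0.0572) and without control replicate 2 (edgeR adjusted p = 0.0714), which left 1 of the 4 genes lower.

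NHP2 (5q35.3, chr5:178149463-178153885), the most abundant of the 4 at 557 ± 14 TPM in control and 531 ± 17.3 TPM in 4HC (SD, n = 3), had 169, 174 and 176 CPM in control and 164, 173 and 161 CPM in 4HC. The groups overlapped, and the log2 fold change of -0.06 did not pass (edgeR adjusted p = 0.232). NOP10 (15q14, chr15:34341719-34343136), singled out after its values were seen, had 59.3, 59.1 and 58.5 CPM in control and 62.2, 64.9 and 61.7 CPM in 4HC. Every 4HC sample lay above every control sample, as in 2900 of the 12368 genes tested, yet the log2 fold change of 0.09 did not pass (edgeR adjusted p = 0.123). By limma on log2(FPKM + 1) it did pass, with 0.10 (adjusted p = 0.022).

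Within each sample, the members of the H/ACA particle were also set against each other. The ratio of DKC1 to NOP10 on the TPM scale was 0.259, 0.246 and 0.263 in control and 0.208, 0.189 and 0.207 in 4HC. DKC1 to NHP2 and GAR1 to NOP10 were likewise lower in every 4HC sample, by 0.20 and 0.32 on the log2 scale (exact permutation test, two-sided, p = 0.1 for each, the smallest possible). In all, 6 ratios were compared, and each had the same p of 0.1 by the exact permutation test. The pairs were chosen after values had been seen, so this p does not measure support for a difference between genes.

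Of the 6 multifunctional nucleolar proteins, 5 were lower and 0 were higher, with a median log2 fold change of -0.21. These genes include the most abundant of the 46. NPM1, nucleophosmin (5q35.1, chr5:171387116-171410900), had 2402 ± 36.4 TPM in control and 2075 ± 49.2 TPM in 4HC (SD, n = 3). Its 1631, 1597 and 1595 CPM in control lay above 1355, 1439 and 1393 CPM in 4HC, and the log2 fold change was -0.20 ± 0.0294 (SE, edgeR adjusted p = 1.23e-07). NPM1 is known to have processed pseudogenes, and how the authors' counting divided reads with them was not tested.

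NOLC1, the snoRNP chaperone Nopp140 (10q24.32, chr10:102152370-102163870), had 426, 424 and 439 CPM in control and 331, 322 and 335 CPM in 4HC. It fell by 23.4%, a log2 fold change of -0.38 ± 0.0323 and the lowest adjusted p of the 46 genes (SE, edgeR adjusted p = 2.46e-14). DDX21, an RNA helicase of the nucleolus (10q22.1, chr10:68956125-68985068), had 765, 717 and 746 CPM in control and 599, 621 and 641 CPM in 4HC. NCL, nucleolin (2q37.1, chr2:231453531-231464484), had 1182, 1173 and 1225 CPM in control and 1021, 1040 and 1034 CPM in 4HC. In neither gene did the groups overlap, with log2 fold changes of -0.26 ± 0.0319 and -0.21 ± 0.0294 (SE, edgeR adjusted p = 2.31e-09 and 6.95e-08). LYAR, a nucleolar zinc finger protein, fell by 0.20 on the log2 scale. NPM3, of the nucleoplasmin family, did not pass, with a log2 fold change of -0.08 (edgeR adjusted p = 0.227).

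**Figure D5:**
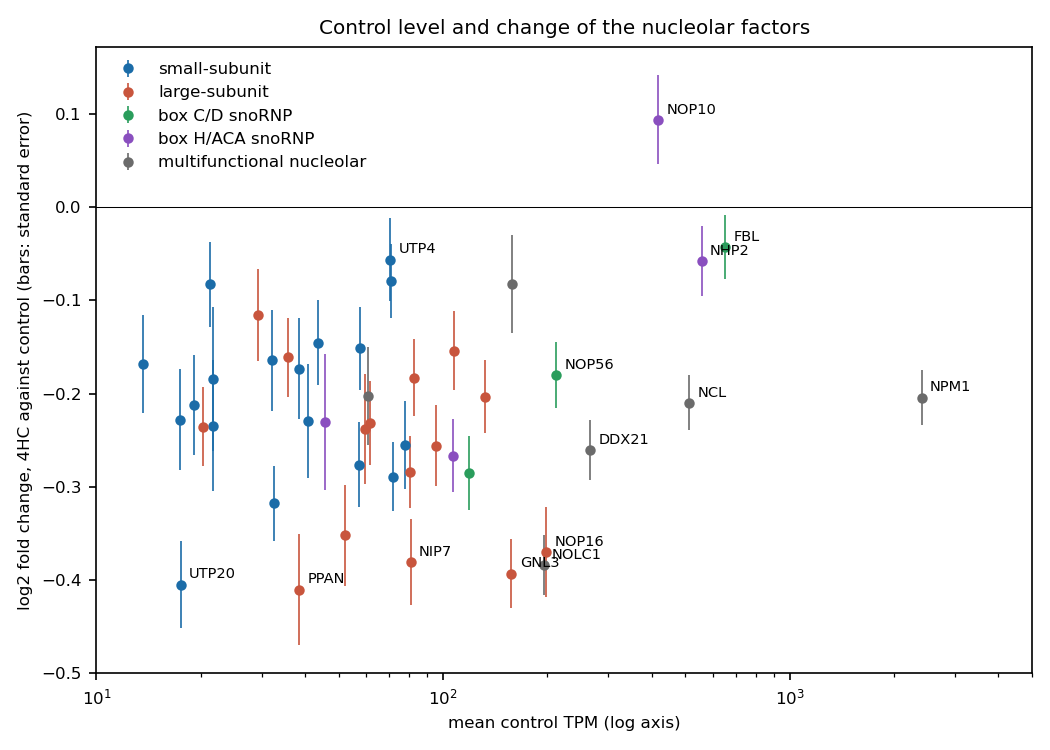
Mean control TPM (x axis, log scale) against the log2 fold change of 4HC against control (y axis, bars show the standard error) for the 46 genes, coloured by role. Among the most abundant genes NPM1 (2402 TPM) and NCL (513 TPM) fell, while FBL (651 TPM), NHP2 (557 TPM) and NOP10 (418 TPM) did not pass the test.

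As the plot of level against change shows, the 46 genes lay between the 43.4th percentile (TBL3) and the 99.5th (NPM1) of the control TPM of all genes tested. Several of the genes that did not pass were among the most abundant. In FBL, NHP2 and NOP10 the standard errors of 0.0346, 0.0373 and 0.0477 on the log2 scale were about those of genes that were called.

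In GENCODE release 29, 8 of the 46 genes (17.4%) held annotated snoRNA genes within their span on the same strand, compared with 1.68% of 12061 tested genes. These hosts were NOP58, NOP56, DKC1, PPAN, GNL3, NCL, TSR1 and WDR43, with 27 snoRNA genes in all. NOP56 held 5, among them SNORD56 and SNORD57, and GNL3 held 6, among them SNORD19 and SNORD69. All hosts but WDR43 were lower, 7 of 8 compared with 30 of the 38 other genes, with median log2 fold changes of -0.28 and -0.21. The snoRNAs themselves were not analysed here.

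At the level of transcripts, 18 of the 46 genes had a single row in the deposited transcript table, and in 38 a single transcript held over 80% of the counts. The most abundant transcript was lower in every 4HC sample in 34 genes, higher in 1 (NOP10) and overlapping in 11. The same share over the transcripts of all genes was not computed, so these counts have no background beside them. Among the genes called lower, GAR1, NOP2, PWP2 and NOP14 were those whose most abundant transcript overlapped between the groups. For NPM1 the leading transcript took 89.6% to 89.8% of its counts in control and 89.9% to 90.9% in 4HC. BOP1, FBL, NOC4L, NOP9 and UTP4 have no main-chromosome coordinates in the deposited table, and of these only BOP1 was called lower. A second copy of a transcript is listed for BOP1, FBL, NOC4L and NOP9. In NOP9 that copy took from 17.8% (control replicate 1) to 55.7% (control replicate 2) of the counts. How reads were placed for these genes, and any effect on their calls and ratios, was not tested.

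Some of the genes share exonic bases with a gene on the opposite strand, 17 in all and 9 of them over more than 10% of their exonic bases. These 9 were NHP2, NIP7, NOP16, WDR74, HEATR1, TSR1, TBL3, NOP14 and NOP9, of which 7 were lower. On the same strand, RRS1 shares 11.4% of its exonic bases with another gene. Of the 26 genes with no annotated overlap, 20 were lower.

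Beyond the 46 genes, 111 other genes of ribosome biogenesis were read from a list. Of these 63 were lower (56.8%), 7 were higher (6.31%) and 41 did not pass, with a median log2 fold change of -0.14. The shares over all genes tested were 17.1% lower and 19.2% higher. The largest falls were those of DHX37, an RNA helicase of the SSU processome (78.8 ± 2.23 CPM in control and 58.4 ± 4.97 CPM in 4HC, SD, n = 3), URB2 and NOL6, with log2 fold changes of -0.43, -0.40 and -0.39 (edgeR adjusted p = 5.32e-10, 5.19e-08 and 3.35e-09). PIH1D1 and ZNHIT3, which act in the assembly of box C/D snoRNPs, and EXOSC9, a subunit of the RNA exosome, rose by 0.25, 0.23 and 0.24 on the log2 scale (edgeR adjusted p = 0.000137, 0.00381 and 0.000178).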

How the data were processed

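Total RNA of 3 control and 3 4HC samples of COV434 was analysed. The authors filtered the reads with SOAPnuke. The submitters' processing notes name HISAT2, Bowtie2, RSEM 1.3.1, DESeq2 1.4.5 and GRCh38.p13. The authors deposited expected counts per gene and transcript, of which 85.5% were whole numbers within 0.005, with TPM and FPKM values that the authors scaled for length and depth. Their own fold changes and p-values were not used. Neither the strand setting nor separate culture of replicates is given in the sources used here.

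After rounding, expected counts went into edgeR 4.0.16, run in R 4.3.3 (TMM, filterByExpr, quasi-likelihood test, condition as the only term), with Benjamini-Hochberg adjustment over 12368 genes at 0.05, after a check on simulated counts. Replicates differed by more than sampling noise (chi-square per gene 1.7 to 2.46). DESeq2 1.42.0, limma 3.58.1, other scaling and filters, a replicate block and removal of each sample were alternatives. Promoters came from RefSeq and snoRNA hosts from GENCODE 29. The 46 genes, the lists and the tests were chosen with earlier results of these data known. Every one of the 46 genes is named. Values per sample are given for up to 3 of the largest falls and rises and for the most abundant gene of each role. Of the other biogenesis genes, the 3 largest falls, the 3 largest rises and SNU13 are named. Markers at 5 TPM or more or under 0.5 TPM are named, as are those not listed.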

Additional observations from a re-analysis of the deposited data

How the results depend on the processing

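No result changed direction among the alternatives in which it could be computed. Leaving out each sample in turn gave 34 to 37 of the 46 genes lower and 0 higher, with a median log2 fold change between -0.23 and -0.21. For the small-subunit factors the count was 12 to 14 and the median -0.21 to -0.19, for the large-subunit factors 14 and -0.26 to -0.21, and for the multifunctional proteins 5 and -0.22 to -0.20. Box H/ACA genes gave 1 to 2 lower with medians from -0.17 to -0.12, box C/D genes 2 with medians from -0.20 to -0.16, and the other biogenesis genes 51 to 58 lower and 4 to 6 higher with medians from -0.15 to -0.14. With library size as the only scaling the median was -0.20 for the 46 genes, -0.18 for the small subunit and -0.12 for both box H/ACA and the other biogenesis genes. With limma on log2(FPKM + 1) these medians were -0.19, -0.17, -0.13 and -0.12, the large-subunit median was -0.21, and 1 gene, NOP10 of box H/ACA, was higher. NOP14, WDR75, PWP2 and TBL3 were not called there. DESeq2 left 1 box H/ACA gene lower and 4 other biogenesis genes higher, as did limma on log2(TPM + 1) and log2(TPM + 0.1) for the latter (4 each). The median of the other biogenesis genes was -0.15 with upper quartile factors and -0.15 with log2(TPM + 0.1). At a fold change of at least 2 with an unadjusted p-value under 0.05, 0 of the 46 genes were lower. The causes were not tested.

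Samples that share a replicate number showed little common deviation from their group means (correlations of deviations 0.031, 0.085 and 0.014). Whether they were paired by design is not given in the sources used here. With the replicate number as a block, 37 genes were lower, 0 were higher and the median was -0.22, so the block moved no count of the 46 genes. Depth was enough for every one of them to be tested, but in 3 against 3 samples changes under about 0.1 on the log2 scale were not called in NOP10, FBL, NHP2, UTP4, WDR43, NOP9 and NPM3.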

Other observations

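MYC, named after its values were seen, fell in the same samples. It had 167, 171 and 172 CPM in control and 141, 137 and 140 CPM in 4HC, without overlap, and a log2 fold change of -0.29 ± 0.0371 (SE, edgeR adjusted p = 9.25e-09). The readthrough gene PPAN-P2RY11 had 11.03, 6.83 and 10.9 CPM in control and 5.01, 10.9 and 12.8 CPM in 4HC, with overlapping groups.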
